A study of Mus musculus with 10 samples.

Results

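The data described here are the transcript counts of 7 genes that bind calmodulin, encode it, or belong to the calcium/calmodulin-dependent protein kinase II (CaMKII): Nrgn, Pcp4, Camk2a, Camk2b, Camk2n1, Calm2 and Calm3. They were found by symbol in the gene lists of the deposited matrices and make up 7 of the 30406 genes that all 10 libraries share. All 7 passed the filter on low counts in each of the 9 cell classes tested. The set was chosen by measured values of these same libraries, namely UMI levels over neuron layers, interneurons, glia and vessels and the rank difference of Nrgn in astrocytes and endothelial cells, so levels across classes are given as a description, without tests. The study sequenced RNA cell by cell in the medial prefrontal cortex (mPFC). The animals were males of the inbred mouse strain C57BL/6N, more than 2 months of age. The mice were either rank 1 (dominant) or rank 4 (subordinate) in a hierarchy set by the tube test, in which 2 mice meet in a narrow tube and the loser backs out. Tissue was collected a day after the last such test, digested with papain and run on the 10x Genomics droplet system, with no genotype or drug that differed between the ranks named in the labels. Each rank has 5 libraries, and each library pools 2 or 3 mice, so the pooled library is the replicate and the spread between single mice was not measured.

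Calmodulin is a small calcium sensor made from several genes, Calm2 and Calm3 among them, that encode the same protein. Neurogranin (Nrgn) and Purkinje cell protein 4 (Pcp4, also called PEP-19) are short proteins with an IQ motif that bind calmodulin and change how it exchanges calcium. Once loaded with calcium, calmodulin activates CaMKII, a kinase of many subunits in which the alpha (Camk2a) and beta (Camk2b) forms predominate in forebrain neurons, and Camk2n1 encodes an inhibitor of that kinase. In the cortex the pathway is best known for changes in synaptic strength at the dendritic spines of excitatory neurons.

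Positions are on GRCm38 from the GENCODE M21 annotation, and the lengths are those of the longest coding transcript. Nrgn (ENSMUSG00000053310) lies on the minus strand at chr9:37544492-37552904, has 4 exons and codes over 234 of its 1453 bases. Pcp4 (ENSMUSG00000090223) lies on the plus strand at chr16:96467606-96525793 and codes over 186 of 641 bases. A longer gene model named Igsf5 runs over most of it on the same strand and is not among the shared genes. Camk2a (ENSMUSG00000024617, plus strand, chr18:60925618-60988152) has 18 exons and holds 2 microRNA genes on its own strand, and Camk2b (ENSMUSG00000057897, minus strand, chr11:5969644-6066362) has 21 exons. Camk2n1 (ENSMUSG00000046447) lies on the plus strand at chr4:138454314-138460123 with 2 exons. Calm2 (ENSMUSG00000036438, chr17:87433412-87446935) and Calm3 (ENSMUSG00000019370, chr7:16915379-16924114) both lie on the minus strand with 6 exons each. No annotated gene overlaps any of the 7 on the opposite strand.

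Of 64937 deposited barcodes, 45864 were kept as cells. They were clustered without the 7 genes and named from marker genes. They included 16432 excitatory neurons, 2253 inhibitory neurons, 9012 astrocytes, 3196 oligodendrocyte precursors, 2314 oligodendrocytes, 3617 microglia, 4395 endothelial cells, 1641 pericytes and 532 smooth muscle cells, all names standing for cells that resemble that type. A level is the gene's UMIs (unique molecular identifiers, 1 per captured RNA molecule) summed over the cells of a class in 1 library, per 1000000 UMIs of that class (CPM), and is given as mean ± SD over libraries with at least 20 such cells. Libraries held 4442750 to 29278466 UMIs, the median kept cell had 1328 to 2674 of them, and 571 barcode sequences occurred in more than 1 library. Rank 1 libraries kept 4761, 1930, 1445, 1972 and 7290 cells (replicates 1 to 5 in order). Those of rank 4 kept 4418, 1706, 3655, 6095 and 12592. The median excitatory neuron had 2956, 2921.5, 3416, 7466 and 3255 UMIs in rank 1 and 3119, 2945, 2771, 2394 and 1660 in rank 4. The part of these differences in the rank results was not tested. Rank 4 replicate 1 stood apart with a higher floor (1037 UMIs in its smallest barcode) and a median of 10.7% mitochondrial UMIs. The 4 libraries of replicates 2 and 3, from both ranks, stood apart from the 6 of replicates 1, 4 and 5 in the levels of these genes, so values are given for both sets; the division was made after the values were seen.

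Because Calm2 and Calm3 encode one protein, reads of one could in principle be credited to another. Their coding sequences of 447 bases differ at many silent positions: they are identical at 82.6% of bases, and the longest stretch common to their longest coding transcripts has 17 bases. This stretch lies within the coding sequence of both and is shown to make that plain, in lower case and 5′ to 3′, as read from the GENCODE M21 transcripts.
Calm2 and Calm3: cagattgcagagttcaa
It covers coding bases 25 to 41 of Calm2, counted from the first base of its start codon. Camk2a and Camk2b have no stretch in common longer than 32 bases.

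Promoter windows from RefSeq on GRCm38.p6 matched 4 of the 7 genes and are printed because these 4 genes differ in the levels given below. Among neurons Pcp4 is several times higher in some layers than in others, and Calm3 is nearly even across neuron types. Each window shows the 250 bases before the start that RefSeq annotates, on the gene's own strand, with matches in capitals. For genes other than Pcp4 this start lies downstream of the GENCODE one used for the positions above: the Camk2b window is wholly inside the gene span given there, and the Nrgn and Calm3 windows are partly inside theirs. The motifs searched, on both strands, were CAGATG (an E-box of the kind bound by neuronal basic helix-loop-helix factors), GGGCGG (the GC box), TGACGTCA (the full cAMP response element) and TATAAA. They occur in 14.5%, 32.7%, 1.55% and 12.4% of all 32817 windows of that length. None of the matches overlaps another, apart from neighbouring GC boxes of Camk2b that share a base.
Nrgn, minus strand, chr9:37552746-37552995: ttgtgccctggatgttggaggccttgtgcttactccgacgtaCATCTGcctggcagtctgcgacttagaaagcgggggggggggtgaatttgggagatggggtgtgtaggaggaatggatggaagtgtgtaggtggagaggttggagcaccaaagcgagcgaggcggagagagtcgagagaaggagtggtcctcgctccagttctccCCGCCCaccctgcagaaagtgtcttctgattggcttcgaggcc
Pcp4, plus strand, chr16:96467356-96467605: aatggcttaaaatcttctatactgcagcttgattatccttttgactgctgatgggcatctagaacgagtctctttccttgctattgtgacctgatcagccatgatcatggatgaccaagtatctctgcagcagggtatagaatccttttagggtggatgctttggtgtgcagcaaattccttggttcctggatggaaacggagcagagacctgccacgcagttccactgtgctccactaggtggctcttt
Camk2b, minus strand, chr11:6065749-6065998: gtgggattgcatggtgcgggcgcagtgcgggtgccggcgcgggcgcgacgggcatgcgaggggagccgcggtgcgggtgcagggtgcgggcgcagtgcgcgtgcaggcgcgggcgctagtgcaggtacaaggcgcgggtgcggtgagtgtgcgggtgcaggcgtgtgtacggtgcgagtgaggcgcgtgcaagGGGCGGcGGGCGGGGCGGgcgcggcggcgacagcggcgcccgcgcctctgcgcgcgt
Calm3, minus strand, chr7:16924033-16924282: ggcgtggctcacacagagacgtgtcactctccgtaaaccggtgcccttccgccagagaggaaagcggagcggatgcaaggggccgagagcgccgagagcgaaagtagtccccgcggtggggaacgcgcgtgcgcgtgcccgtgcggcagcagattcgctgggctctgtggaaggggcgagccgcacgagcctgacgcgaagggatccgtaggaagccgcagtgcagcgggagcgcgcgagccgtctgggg
The Nrgn window holds 1 CAGATG match, written as its complement, and 1 GC box, the Camk2b window holds 3 GC boxes, and the other windows hold no match. CG pairs number 3 in the Pcp4 window, 11 in Nrgn, 33 in Calm3 and 44 in Camk2b, beside a median of 6 over all windows. These matches describe letters and not bound sites.

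Nrgn was highest in excitatory neurons and lowest in inhibitory neurons. In excitatory neurons it was at 334, 607, 712, 898 and 1059.6 CPM in the rank 1 libraries (replicates 1 to 5 in order), and 630.4, 642, 949.9, 1062 and 1971 CPM in the rank 4 libraries (replicates 1 to 5 in order), a mean of 887 ± 445 CPM (SD, n = 10). In inhibitory neurons it was at 78.1, 17.4, 28.6, 100.3 and 233 CPM in the rank 1 libraries (replicates 1 to 5 in order), and 219.9, 16.6, 59.5, 262 and 463 CPM in the rank 4 libraries (replicates 1 to 5 in order), a mean of 148 ± 145 CPM (SD, n = 10). The excitatory level was above the inhibitory one in 10 of 10 libraries. The other classes lay between them: microglia had 360.2 ± 319.6 CPM, pericytes 339.8 ± 320.3, endothelial cells 272 ± 274, oligodendrocytes 253 ± 252, oligodendrocyte precursors 246 ± 242 and astrocytes 241 ± 240.2 (n = 10 each). The means of these 6 differed by less than the spread between libraries, but within a library pericytes were above astrocytes in 10 of 10, microglia and endothelial cells in 9 of 10 each, and oligodendrocyte precursors in 6 of 10. The inhibitory level was under that of endothelial cells in 10 of 10 libraries, under that of pericytes in 10 of 10 and under that of astrocytes in 9 of 10. Haemoglobin-rich erythroid barcodes, a cell type that should lack Nrgn, had 431 ± 370.2 CPM (SD, n = 6). Of these 6 libraries 5 are of replicates 1, 4 and 5, so that mean is not comparable with those over 10 libraries. Within a library the erythroid level was above that of astrocytes in 3 of 6 and above that of microglia in 2 of 6.

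The glial and vascular values depended on the replicate set. In the 4 libraries of replicates 2 and 3, Nrgn was at 32.1 ± 7.79 CPM in astrocytes, 29.4 ± 13.1 in oligodendrocyte precursors, 30.5 ± 20.1 in inhibitory neurons and 728 ± 154 in excitatory neurons. In the 6 libraries of replicates 1, 4 and 5 the same classes had 381 ± 213, 389.9 ± 207, 226 ± 138 and 992 ± 555 CPM. The excitatory values of the sets overlapped, whereas those of astrocytes, precursors and inhibitory neurons did not.

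Among neuron subclasses, named by layer and projection type (CT for corticothalamic, NP for near-projecting, PT for pyramidal tract and IT for intratelencephalic cells), Nrgn followed the order L5 PT (1094 ± 507 CPM), L6 CT (829 ± 517), L5 IT (697 ± 305), L2/3 IT (547 ± 368) and L5/6 NP (419 ± 206). L5 PT was above L5/6 NP in 8 of 8 libraries, L5 IT above L2/3 IT in 8 of 10, and L6 CT above L5 IT in 5 of 8, so that the middle of the order was not resolved. With the 7 genes left in the clustering, the L2/3 IT level was 919 CPM. The 4 interneuron subclasses, Pvalb, Vip, Lamp5 and Sst, lay between 123 and 194 CPM. Over 18 classes and subclasses and 8441 genes, the patterns most like that of Nrgn, by Pearson's r of log2(CPM + 10), were those of Neurod2 (r = 0.93), Slc17a7 (0.93) and Rasgrp1 (0.93). The first is a transcription factor of cortical excitatory neurons and the second the vesicular glutamate transporter, and both are among the naming markers. These coefficients describe units that come from the same libraries and differ in depth.

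**Figure D1:**
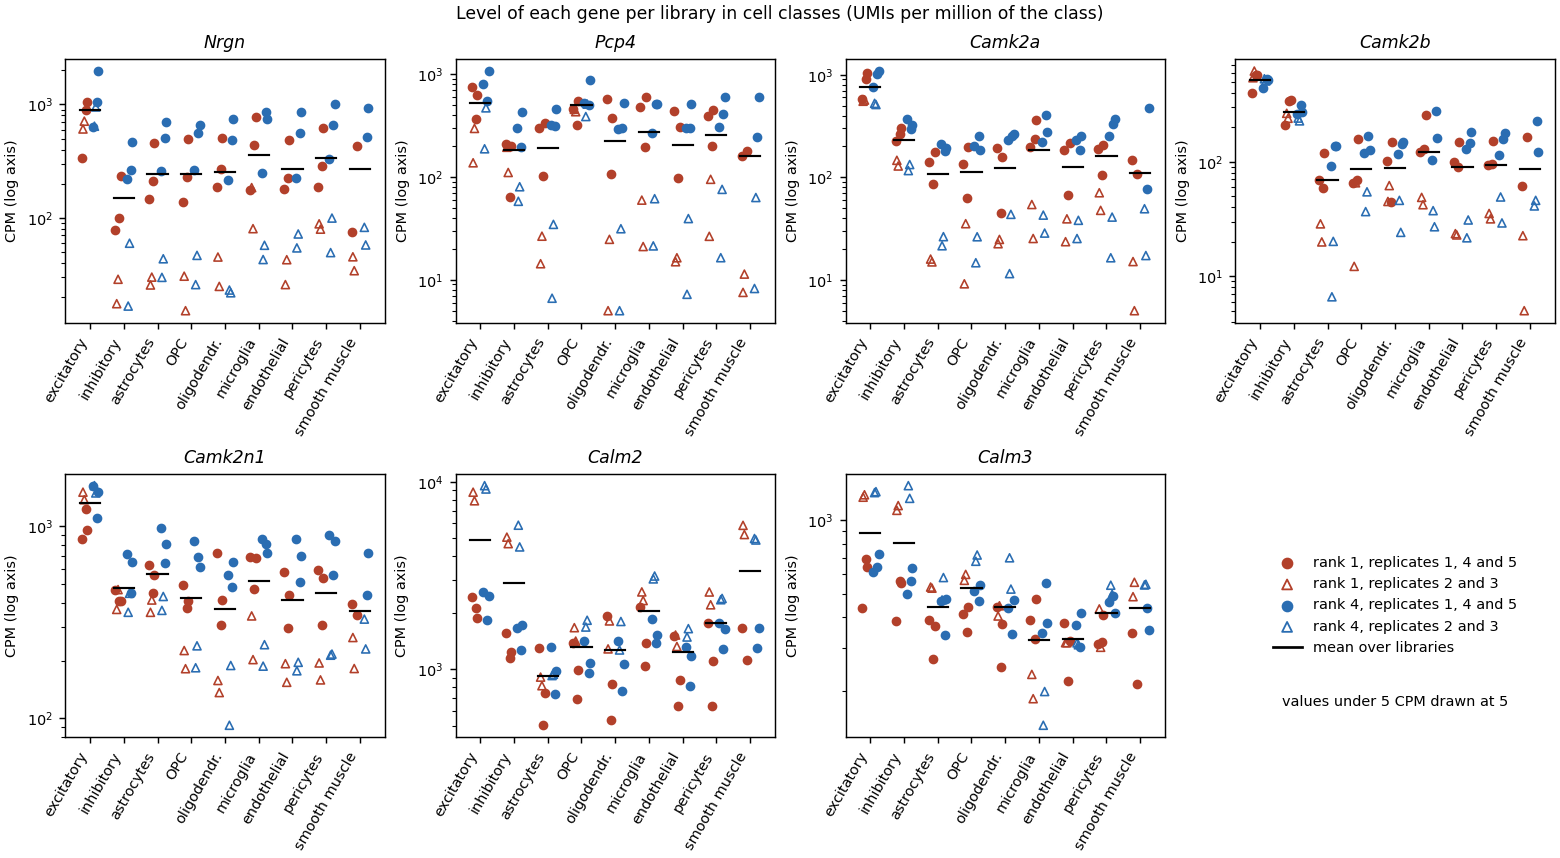
Level of each of the 7 genes (CPM, log axis) in 9 cell classes, 1 point per library, with the mean over libraries as a bar (values under 5 CPM are drawn at 5). Excitatory neurons hold the highest mean in every panel, and the open triangles of replicates 2 and 3 fall below most of the filled points outside neurons for Nrgn, Pcp4, Camk2a and Camk2n1 but above them in neurons for Calm2 and Calm3. The sets overlap for Nrgn in microglia and smooth muscle and for Pcp4 in oligodendrocyte precursors.

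The mean level of Pcp4 was highest in deep-layer neurons and, outside neurons, in oligodendrocyte precursors. In L6 CT neurons it was at 1161, 2094, 1041 and 1105 CPM in rank 1 replicates 1, 3, 4 and 5, and 2255, 3123, 1036 and 2397 CPM in rank 4 replicates 1, 3, 4 and 5 (mean 1777 ± 797 CPM, SD, n = 8). L5/6 NP neurons followed with 1146 ± 355 CPM (SD, n = 8). The remaining subclasses were several times lower, from 120.2 CPM in Lamp5 and 179.8 in L2/3 IT cells to 279 in L5 PT and 292 in Vip interneurons, and L5/6 NP exceeded Vip in 8 of 8 libraries. The 2 top subclasses could not be put in order beyond their spread, L6 CT being higher in 6 of 7 libraries.

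In oligodendrocyte precursors, the dividing progenitors of the oligodendrocyte lineage, Pcp4 was at 459, 457, 433, 320.5 and 546 CPM in the rank 1 libraries (replicates 1 to 5 in order), and 527, 389, 514, 505 and 882 CPM in the rank 4 libraries (replicates 1 to 5 in order). Their mean of 503 ± 149.6 CPM was close to that of excitatory neurons as a whole (529 ± 296), and the precursors were higher than astrocytes in 10 of 10 libraries, higher than mature oligodendrocytes in 9 of 10 and higher than microglia in 7 of 10. The contrast was sharpest in replicates 2 and 3, where precursors had 389 to 514 CPM, pericytes 16.4 to 95.1, microglia 21.1 to 61.6, endothelial cells 7.22 to 39.4, astrocytes 6.61 to 34.6 and oligodendrocytes 0 to 31.4. With each cell thinned to 1000 UMIs, 37.7% ± 9.44 of precursors had a Pcp4 UMI, against 28.3% ± 13.9 of excitatory neurons and 17.1% ± 14.1 of astrocytes (SD, n = 10, 10 and 10 libraries). The unthinned shares were 52.1%, 49.4% and 25.7%, at median depths of 1671, 2950.5 and 1656 UMIs. The nearest patterns across classes were those of Rprm (r = 0.95), Foxp2 (0.92) and Nxph3 (0.86), of which the first 2 belong to the naming markers of deep layers.

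Both kinase subunits were highest in excitatory neurons, and they differed in how they varied between neuron types. Camk2a, the alpha subunit, was at 575, 551, 566, 900.2 and 1037 CPM in the rank 1 libraries (replicates 1 to 5 in order), and 762, 526, 512, 1027 and 1086 CPM in the rank 4 libraries (replicates 1 to 5 in order) in excitatory neurons, a mean of 754 ± 237 CPM (SD, n = 10). It was at 231 ± 93.9 CPM (SD, n = 10) in inhibitory neurons, lower in 10 of 10 libraries. L2/3 IT (1050.3 ± 331 CPM), L5 PT (963 ± 205) and L5 IT (948 ± 369.7) were not separated from each other. L6 CT (614 ± 183) was below L2/3 IT in 8 of 8 libraries. L5/6 NP neurons had 273 ± 103 CPM (SD, n = 8), which was below L6 CT in 7 of 7 libraries and within the range of the interneurons (199 to 296 CPM).

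Camk2b, the beta subunit, had the smallest spread between libraries in excitatory neurons relative to its mean. It was at 396, 542, 619.7, 570.3 and 567 CPM in the rank 1 libraries (replicates 1 to 5 in order), and 438, 531, 508, 528 and 519.9 CPM in the rank 4 libraries (replicates 1 to 5 in order) in excitatory neurons (mean 522 ± 64.6 CPM, SD, n = 10) and at 272 ± 46.2 CPM in inhibitory neurons, higher in the excitatory cells in 10 of 10 libraries with no overlap of the values. L5 PT was the highest subclass (719.9 ± 169 CPM) and L5/6 NP the lowest excitatory one (428 ± 83.1), still above Sst (306 ± 64.4) in 8 of 8 libraries. Its excitatory means thus spanned a narrower ratio than those of Camk2a. Glial and vascular means ran from 68.9 CPM in astrocytes to 121 in microglia. Across classes Camk2a and Camk2b had r = 0.93 with each other, the closest pair among the 7, while Pcp4 and Calm3 had r = 0.10. The nearest other patterns were Iqsec2, Icam5 and Fbxw7 for Camk2a (r = 0.96 for each) and Trank1 and Svop for Camk2b (r = 0.99 and 0.98).

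**Figure D2:**
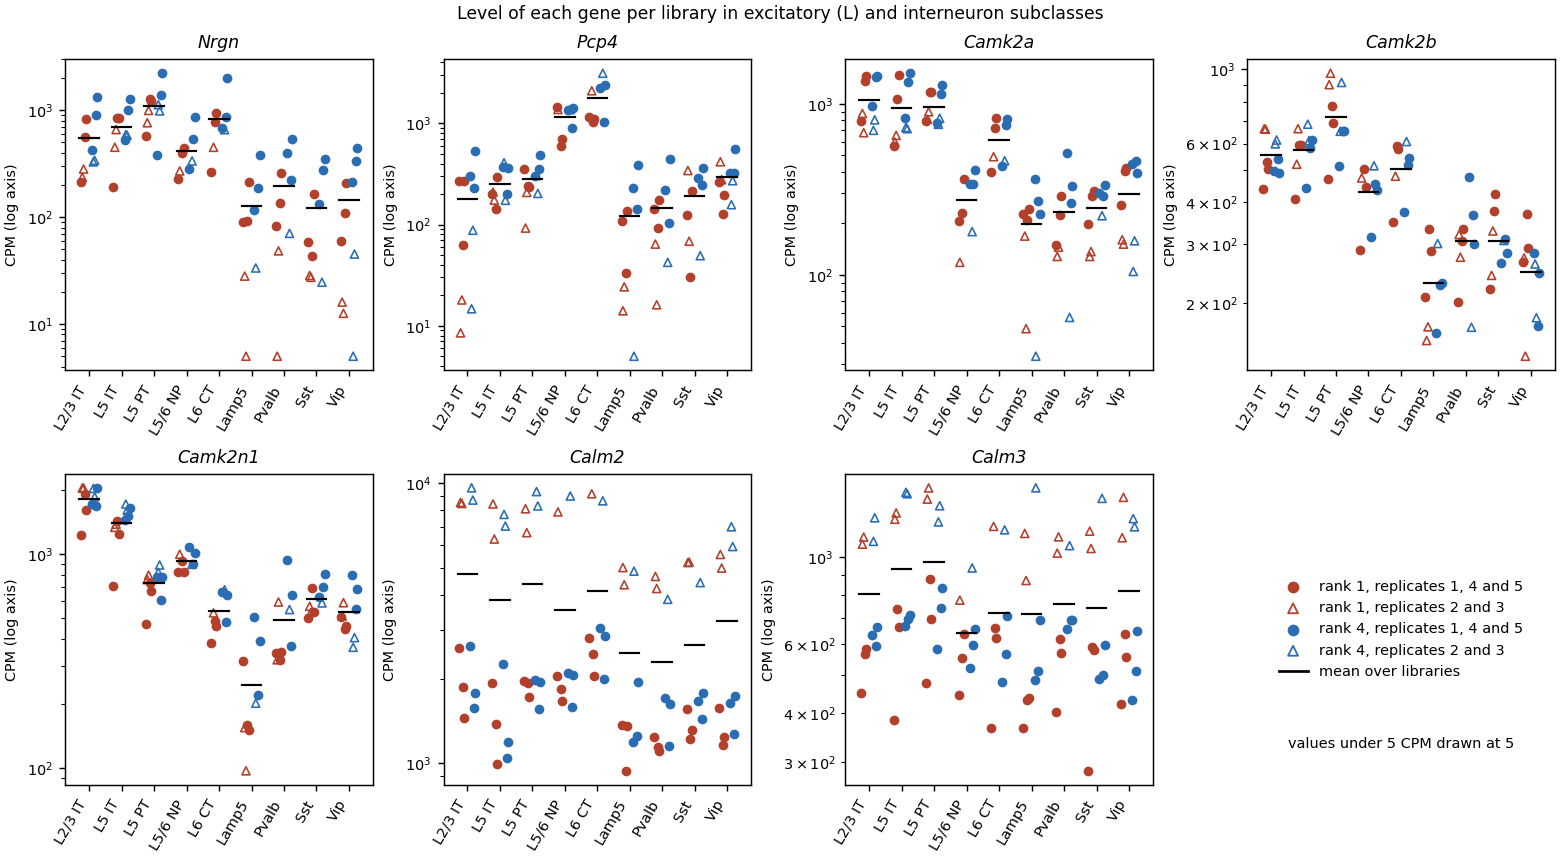
Level of each gene (CPM, log axis) in 5 excitatory and 4 interneuron subclasses, 1 point per library with at least 20 cells (10 for interneurons), with the mean as a bar. Pcp4 is high in L5/6 NP and L6 CT, Camk2a falls to interneuron levels in L5/6 NP, and Camk2n1 is highest in L2/3 IT.

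Camk2n1, the CaMKII inhibitor, had a laminar pattern unlike that of the kinase. It was at 1233, 2034, 2035, 1913 and 1605 CPM in the rank 1 libraries (replicates 1 to 5 in order), and 1707, 2026, 1851, 1676 and 2039 CPM in the rank 4 libraries (replicates 1 to 5 in order) in L2/3 IT neurons, a mean of 1812 ± 262 CPM (SD, n = 10). L5 IT had 1397 ± 282 CPM, L5/6 NP 932 ± 91.0, L5 PT 731 ± 119 and L6 CT 542 ± 109.5. L2/3 IT was above L5 PT in 10 of 10 libraries and L5/6 NP above L5 PT in 8 of 8, and Sst interneurons (619 ± 99.1) were above L6 CT in 6 of 8. So Camk2a and Camk2n1 were both high in L2/3 IT, whereas L5 PT cells, also high in Camk2a, were low in Camk2n1. L5/6 NP, the subclass with the lowest mean Camk2a, was in the middle of the 5 for Camk2n1.

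Outside neurons Camk2n1 was highest on average in astrocytes, at 630.3, 357, 414, 449.8 and 560.2 CPM in the rank 1 libraries (replicates 1 to 5 in order), and 984, 365, 432, 647 and 811 CPM in the rank 4 libraries (replicates 1 to 5 in order). In replicates 2 and 3 the astrocyte range of 357 to 432 CPM lay above those of microglia (187 to 342), oligodendrocyte precursors (181 to 239), pericytes (159 to 216), endothelial cells (154 to 196) and oligodendrocytes (92.0 to 188). In replicates 1, 4 and 5 the astrocyte mean of 680.4 ± 190.0 CPM was within the spread of microglia (707 ± 134) and pericytes (623 ± 219). Its nearest patterns were Tiam2 (r = 0.88), Iqsec2 (0.86) and Nptxr (0.86).

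UMIs of both calmodulin genes were found in every class, and their neuronal level depended on the replicate set. In excitatory neurons Calm2 was at 2418, 8792, 7912, 2122 and 1882 CPM in the rank 1 libraries (replicates 1 to 5 in order), and 2573, 9528, 9141, 1829 and 2465 CPM in the rank 4 libraries (replicates 1 to 5 in order). All 4 libraries of replicates 2 and 3 spanned 7912 to 9528 CPM and the other 6 spanned 1829 to 2573, a 3.99-fold difference of the means with no overlap. Inhibitory neurons showed the same split (5019.7 ± 609 against 1429 ± 244 CPM), as did smooth muscle cells (5234 ± 435, n = 4, against 1429 ± 269, n = 4). Astrocytes did not (896 ± 55.1 against 927 ± 325 CPM). Each set holds libraries of both ranks.

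Calm3 split in the same direction in neurons, 1280.5 ± 29.7 against 625 ± 102 CPM in excitatory and 1215 ± 126 against 533 ± 85.5 CPM in inhibitory cells, again without overlap. In microglia it went the other way (190.3 ± 36.7 against 410.1 ± 86.6 CPM). In excitatory neurons, 2 of the 7 genes were at least 2-fold higher in replicates 2 and 3 with no overlap, beside 9.94% of the 4236 genes of at least 50 CPM, and Calm2 took place 14 among these genes by that ratio. In inhibitory neurons the same 2 genes were, beside 10.8%, and in smooth muscle cells Calm2 alone, beside 10.5%. In astrocytes, 4 of the 7 (Nrgn, Pcp4, Camk2a and Camk2b) were at least 2-fold lower without overlap, beside 12.7% of genes, and in microglia 5 of 7, beside 22.9%. Such lower values were found for 5 genes in endothelial cells and in pericytes (beside 11.4% and 11.8%), for 4 in oligodendrocyte precursors and in oligodendrocytes (9.41% and 11.8%), for 3 in smooth muscle cells (10.8%) and for 2 in inhibitory neurons (4.23%). The labels do not say what distinguishes these replicates. The file headers of replicate 1 carry the same software version as theirs, and the part of the version in these differences was not tested.

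**Figure D3:**
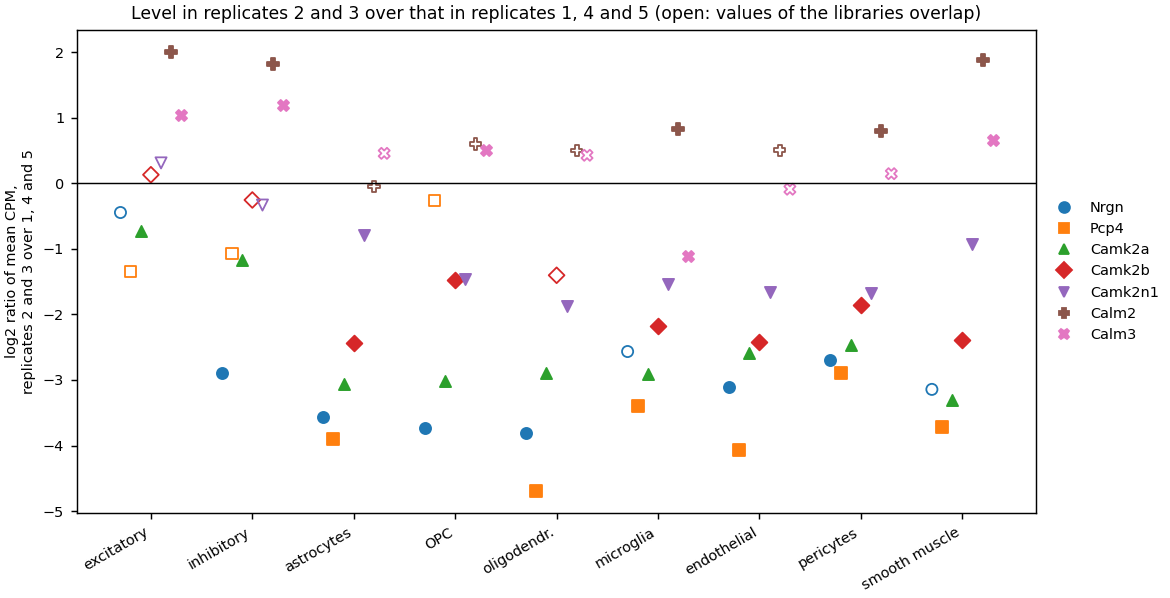
Log2 ratio of the mean CPM in replicates 2 and 3 (4 libraries) to that in replicates 1, 4 and 5 (6 libraries, 4 for smooth muscle) for each gene and class, filled where the libraries of the sets do not overlap. Calm2 and Calm3 sit above 0 in neurons, and Nrgn, Pcp4, Camk2a and Camk2b sit far below 0 in most glial and vascular classes, Pcp4 in oligodendrocyte precursors excepted.

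Some orders of classes for calmodulin held in both replicate sets and others did not. Calm2 was higher in excitatory than in inhibitory neurons in 10 of 10 libraries and higher in microglia than in astrocytes in 10 of 10. Inhibitory neurons were above microglia in 6 of 10 libraries, and in replicates 1, 4 and 5 their means lay within each other's spread (1429 ± 244 and 1554 ± 389 CPM). Excitatory subclasses held different numbers of the libraries of replicates 2 and 3, so their Calm2 is given within replicates 1, 4 and 5 (6 libraries): 2534 ± 435 CPM in L6 CT, 1983 ± 503 in L2/3 IT, 1890.4 ± 219 in L5/6 NP, 1857 ± 171 in L5 PT and 1468 ± 517 in L5 IT. Apart from L6 CT and L2/3 IT, neighbours in that order differed by less than the larger of their SDs, and L6 CT exceeded L5 IT in 8 of 8 libraries of all replicates that held both. Calm3 differed little between neuron types: 887 ± 347 CPM in excitatory and 806 ± 365 in inhibitory neurons, with oligodendrocyte precursors next (529 ± 117), above astrocytes in 10 of 10 libraries and above microglia and oligodendrocytes in 8 of 10 each. Nearest to Calm2 across classes were Ap1ar, Camta2 and Dnajb6 (r = 0.91, 0.90 and 0.89), and nearest to Calm3 were Ice1, Zfr and C2cd5 (r = 0.94 for each). Camta2, in the first group, encodes a calmodulin-binding transcription activator.

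To set the non-neuronal signal of the 7 genes side by side, each class level was expressed as a percentage of the excitatory level in the same library, and the median over astrocytes, oligodendrocyte precursors, oligodendrocytes, microglia, endothelial cells and pericytes was taken. It was lowest for Camk2a (15.8% ± 11.4) and Camk2b (17.5% ± 10.7), then Nrgn (28.2% ± 20.8), Camk2n1 (35.8% ± 22.1), Pcp4 (35.9% ± 24.0), Calm2 (37.1% ± 18.3) and Calm3 (53.2% ± 19.4; SD, n = 10 each). A list of 10 other neuronal transcripts ran from 12.7% (Syt1) to 31.8% (Vsnl1), with Slc17a7, which glia should lack, at 14.5% ± 9.93. In replicates 2 and 3 the median was 5.60% ± 0.467 for Nrgn, 4.91% ± 1.29 for Camk2a, 6.10% ± 0.619 for Camk2b and 10.2% ± 3.73 for Pcp4. In replicates 1, 4 and 5 it was 43.2% ± 9.85, 23.1% ± 8.51, 25.1% ± 5.77 and 53.0% ± 12.1. Calm3 kept 35.4% ± 4.41 even in the first set.

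The counts were also compared gene to gene within a class. In the 6 libraries of replicates 1, 4 and 5, where all 6 of those classes held at least 10 Nrgn UMIs, there were 0.387 to 0.512 Camk2a UMIs per Nrgn UMI in the class medians, and 0.274 to 0.354 Camk2b UMIs. In excitatory neurons the same ratios were 0.990 and 0.585, and in inhibitory neurons 1.49 and 1.34, so the medians of those 6 classes were lower than those of both neuron classes. Erythroid barcodes, with enough Nrgn UMIs in 5 of these libraries, had 0.756 and 0.576, and smooth muscle cells, with enough in 3, had 0.250 and 0.389. Pcp4 gave 0.617 to 0.737 per Nrgn UMI in 5 classes and 1.37 in oligodendrocyte precursors, which were the highest class in 6 of 6 libraries. Camk2n1 gave 1.70 in astrocytes, the highest of the 6 classes in 5 of 6 libraries, with 0.972 to 1.42 in the others. These 2 classes also had the highest non-neuronal levels of those genes in replicates 2 and 3.

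**Figure D4:**
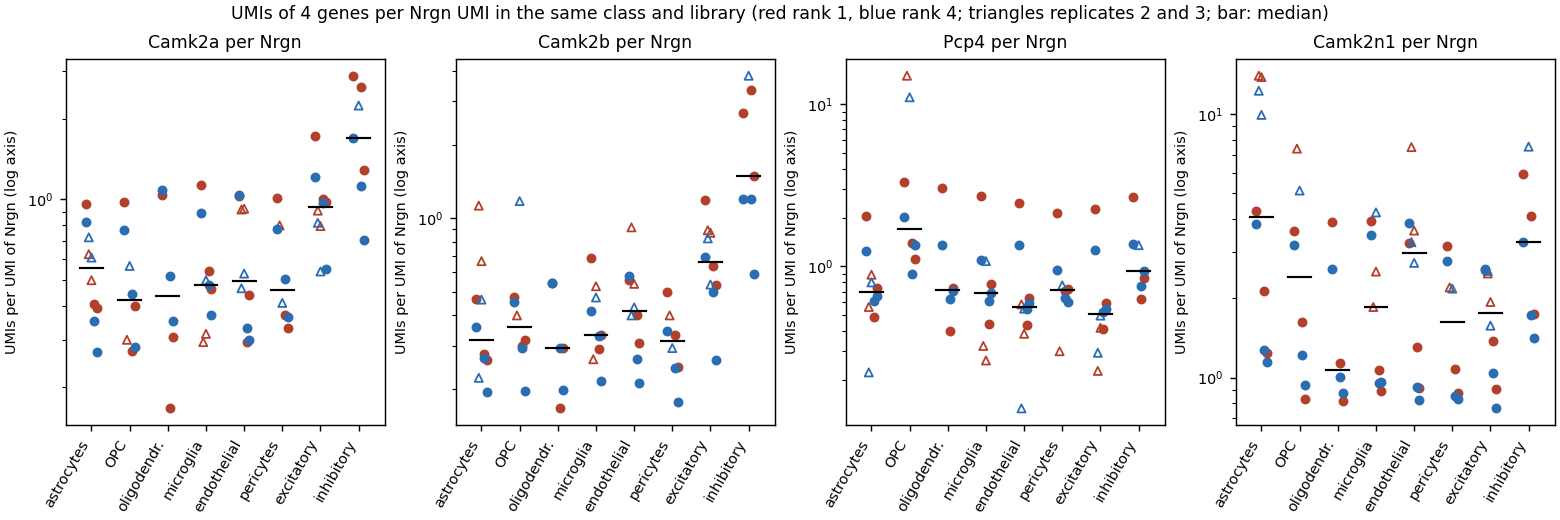
UMIs of Camk2a, Camk2b, Pcp4 and Camk2n1 per Nrgn UMI (log axis) in the same class and library, for class and library pairs with at least 10 Nrgn UMIs, with the median over libraries as a bar. The 6 glial, endothelial and pericyte classes lie below both neuron classes in their medians for Camk2a and Camk2b, oligodendrocyte precursors are high for Pcp4, and astrocytes for Camk2n1.

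Shares of cells gave a similar picture at equal depth. With each cell thinned to 1000 UMIs, 45.8% of excitatory neurons, 25.3% of microglia, 18.9% of astrocytes and 14.3% of inhibitory neurons had an Nrgn UMI (means over libraries). The unthinned shares were 73.2%, 30.5%, 29.8% and 32.0%, at median depths of 2950.5, 1296, 1656 and 3209 UMIs, and 2590 rank 1 and 5761 rank 4 cells under 1000 UMIs were left out. Camk2a UMIs were found in 50.8% of excitatory and 20.8% of inhibitory neurons, beside 9.73% of astrocytes, and Camk2b UMIs in 40.1%, 22.9% and 6.78%. Free RNA in droplets gives UMIs in cells that do not make a gene. The Nrgn share of inhibitory neurons was below that of astrocytes after thinning and above it before, while their Camk2a and Camk2b shares were above the astrocyte ones after thinning. The part of free RNA in these shares was not tested. Astrocytes with an Nrgn UMI carried another of the 10 neuronal transcripts in 75.2% of cells and those without in 71.8%.

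The design compares rank 1 with rank 4. In the fit over all genes with the software version as covariate (edgeR's quasi-likelihood test, Benjamini-Hochberg adjustment over all genes and classes), none of the 63 tests of the 7 genes in 9 classes passed an adjusted p of 0.05, beside 0% of all 69847 tests. At an unadjusted p under 0.05 there were 2, both lower in rank 1, beside 1% of all tests lower, and DESeq2 called none. These were Nrgn in inhibitory neurons (log2 fold change -1.21, SE 0.42) and in excitatory neurons (-0.50, SE 0.22). Of the 63 log2 changes, 54 were below 0, beside 50.1% of all tests, with a median of -0.30 against -7.85e-04 for all. The 63 include Nrgn in astrocytes and in endothelial cells, whose lower values in rank 1 were known when the genes were chosen, and the tests share libraries, so nothing is read from this count or median beside those of all genes. Within replicates 1 to 3 alone 0 of 54 passed, with 0 at an unadjusted p under 0.05, beside 0.461% of all tests lower, and within replicates 4 and 5 alone 0 of 56, with 17, all lower, beside 2.68% of all tests.

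The labels do not say that libraries of the 2 ranks with the same replicate number belong together. They were taken as pairs, and with the replicate as a block the calls changed. Of the 63 tests, 5 passed, all lower in rank 1, beside 0.159% of all 74786 tests in either direction and 0.11% in that one. At an unadjusted p under 0.05, 33 of 63 were lower and 0 higher, beside 5.51% of all tests lower. Both counts include Nrgn in astrocytes (log2 fold change -0.83, SE 0.14) and in endothelial cells (log2 fold change -0.80, SE 0.14), 2 differences that were known when the genes were chosen. These are given as a description, with no test, and the counts are not read against the share of all tests. Without each pair in turn the blocked changes were -0.91 to -0.70 in astrocytes and -0.97 to -0.67 in endothelial cells. In the fit with the version covariate and no block they were -1.38 to -0.03 and -1.30 to -0.35 without single libraries, nearest to 0 without rank 4 replicate 1 in both. Of the other 3 calls, 2 were Nrgn, in inhibitory neurons (log2 fold change -1.19, SE 0.16, adjusted p = 3.63e-05) and in oligodendrocyte precursors (log2 fold change -0.81, SE 0.16, adjusted p = 0.0159). The last was Camk2a in smooth muscle cells (log2 fold change -1.98, SE 0.46, adjusted p = 0.0455), where 4 libraries of each rank formed 3 pairs. All 3 calls come from the libraries by whose values the genes were chosen, so they are not independent of that choice. In excitatory neurons, where Nrgn is most abundant, it missed the threshold (log2 fold change -0.50, SE 0.11, adjusted p = 0.0785), as did Pcp4 (log2 fold change -0.50, SE 0.10, adjusted p = 0.0531), though both were lower in rank 1 in 5 of 5 pairs of libraries.

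In astrocytes Nrgn was at 147, 25.5, 29.9, 210.3 and 453 CPM in the rank 1 libraries (replicates 1 to 5 in order), and 257, 29.7, 43.4, 510.4 and 707 CPM in the rank 4 libraries (replicates 1 to 5 in order): every rank 1 value was under its rank 4 partner, while the ranges overlapped. In endothelial cells it was at 179, 25.7, 42.6, 226 and 483 CPM in the rank 1 libraries (replicates 1 to 5 in order), and 224, 54.1, 71.8, 556 and 854 CPM in the rank 4 libraries (replicates 1 to 5 in order), again lower in 5 of 5 pairs. In oligodendrocyte precursors it was at 138, 30.5, 15.1, 231 and 493 CPM in the rank 1 libraries (replicates 1 to 5 in order), and 262, 25.7, 46.5, 564 and 652 CPM in the rank 4 libraries (replicates 1 to 5 in order), lower in 4 of 5 pairs, with replicate 2 the exception. The pairs differed from each other by more than the ranks did, replicates 2 and 3 being far lower than replicates 4 and 5 in both ranks. In inhibitory neurons, given above, rank 1 was lower in 4 of 5 pairs and in the remaining pair, replicate 2, rank 1 was higher by less than 1 CPM. These levels rested on 5 and 2 Nrgn UMIs (rank 1 and rank 4) in replicate 2 and on 8 and 17 in replicate 3. The other libraries had 62 to 854. The inhibitory level was under that of endothelial cells and of pericytes in 10 of 10 libraries, and how much of it is free RNA was not tested. In smooth muscle cells Camk2a was at 148, 15.1, 0 and 107 CPM in rank 1 replicates 1, 2, 3 and 5, and 49.3, 17.2, 76.1 and 476 CPM in rank 4 replicates 2, 3, 4 and 5, lower in 3 of 3 pairs, from 25 to 134 cells per library. Leaving out each pair in turn, the blocked call of Nrgn in inhibitory neurons held in 5 of 5 fits, and that in oligodendrocyte precursors was lost without replicate 1, 3 or 4 (adjusted p up to 0.240). Camk2a in smooth muscle lost its call without replicate 1 or 5 (up to 0.611), and without rank 1 replicate 5 its log2 change in the fit with the version covariate turned to 0.40. Without replicate 2 the count of blocked calls rose to 10 of 70, beside 0.135% of all tests called lower, Nrgn in excitatory neurons and pericytes among them and the 2 known differences included, and in replicates 1, 4 and 5 alone it was 2 of 63, Nrgn and Pcp4 in inhibitory neurons, beside 0.0145%.

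Neuronal transcripts other than the 7 genes also had lower mean levels in rank 1 in the 6 non-neuronal classes summed, although in microglia single libraries turned that direction. Their part in the result was not tested, and smooth muscle cells were not summed. The summed level of the 10 listed neuronal transcripts in astrocytes was 1445 ± 973 CPM in rank 1 (range 478 to 2625) and 1999 ± 1243 CPM in rank 4 (629.6 to 3152), lower in 5 of 5 pairs (SD, 5 libraries of each rank). The exact permutation p, two-sided, was 0.357, adjusted 0.762. In endothelial cells it was 1455 ± 1078 against 2019 ± 1423 CPM, lower in 3 of 5 pairs (exact permutation p = 0.476, adjusted 0.762). In oligodendrocyte precursors it was 1808 ± 964 against 2278 ± 1260.5 CPM, lower in 4 of 5 pairs (exact permutation p = 0.508, adjusted 0.762). In microglia it was 2319 against 2393 CPM, lower in only 1 of 5 pairs, and rank 1 was the higher by 189 to 632 CPM without any 1 of rank 1 replicates 2 and 3 and rank 4 replicates 4 and 5. None of the 6 classes passed. With the libraries taken as pairs, the smallest of the 6 was that of astrocytes (exact sign-flip permutation p = 0.0625, the smallest that 5 pairs allow, adjusted 0.375). To ask whether a gene's rank difference in a non-neuronal class differed from its rank difference in excitatory neurons, log2(CPM + 10) in the class was taken less that in excitatory neurons of the same library. None of the 42 differences passed a two-sided exact permutation test (smallest p 0.373, adjusted 0.984), nor with pairs as a block. With 5 libraries a rank no p can be under 0.00794, and under 0.0625 with pairs, so a single difference could not have passed after adjustment over 42, and these tests do not show that the rank differences were alike. For Nrgn in astrocytes the rank 1 less rank 4 value was -0.14, given as a description because its lower level there was known when the genes were chosen.

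Within excitatory neurons Nrgn and Pcp4, the calmodulin-binding IQ-motif genes, were called lower in rank 1 in some subclasses with the replicate block. No gene passed without it. The genes were chosen with levels over neuron layers and a rank difference of Nrgn in these same libraries known. The counts in subclasses are therefore a description and are not read against the shares of all tests. With the version covariate 0 of 35 tests over 5 subclasses passed, beside 0% of 41641 tests, 6 had an unadjusted p under 0.05, all lower in rank 1, beside 2.48% of all tests, and DESeq2 called none. Of the 35 log2 changes 29 were below 0, beside 49.2%. With the replicate block 5 of 35 passed, all lower in rank 1, beside 0.448% of 45079 in either direction and 0.319% lower, and 13 had an unadjusted p under 0.05, all lower, beside 4.99%. In L2/3 IT neurons these were Nrgn (log2 fold change -0.63, SE 0.12, adjusted p = 0.00719) and Pcp4 (log2 fold change -0.95, SE 0.18, adjusted p = 0.00470), in L6 CT neurons Nrgn (log2 fold change -0.79, SE 0.15, adjusted p = 0.00466) and Pcp4 (log2 fold change -0.66, SE 0.14, adjusted p = 0.0169), and in L5 IT neurons Pcp4 (log2 fold change -0.53, SE 0.13, adjusted p = 0.0302).

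In L2/3 IT neurons Nrgn was at 212, 236, 282, 568 and 819.6 CPM in the rank 1 libraries (replicates 1 to 5 in order), and 428, 329, 340.3, 912 and 1339.5 CPM in the rank 4 libraries (replicates 1 to 5 in order). Each rank 1 library was under its partner, by ratios that were modest in replicates 2 and 3 and larger in the others. In L6 CT neurons it was at 265, 450.1, 772 and 952 CPM in rank 1 replicates 1, 3, 4 and 5, and 687, 658, 859 and 1988 CPM in rank 4 replicates 1, 3, 4 and 5, lower in 4 of 4 pairs, with rank 4 replicate 5 far above the rest. Pcp4 in L6 CT neurons, listed above, was lower in rank 1 in 3 of 4 pairs, and the pair of replicate 4 was level. Pcp4 in L2/3 IT neurons was at 270.3, 8.51, 18.0, 63.3 and 272 CPM in the rank 1 libraries (replicates 1 to 5 in order), and 303, 14.7, 87.8, 231 and 529 CPM in the rank 4 libraries (replicates 1 to 5 in order). That is close to the range in astrocytes (6.61 to 465 CPM), with the highest value above every astrocyte library. How much of that low level is free RNA was not tested. None of the 5 subclass calls held in all fits without 1 pair. Without replicate 5 the count was 0 of 35, beside 0.164% of all tests called lower, with 10 at an unadjusted p under 0.05 in the same edgeR fit, all lower, beside 4.42%. It was 3 without replicate 1 or without replicate 4 (beside 0.151% and 0.0979%), and 6 without replicate 3 (beside 0.239%). The log2 changes behind the 5 subclass calls stayed below 0 in each such fit. Pcp4 in L2/3 IT ran from -1.32 without replicate 1 to -0.69 without replicate 4, and Nrgn in L6 CT from -1.02 without replicate 4 to -0.60 without replicate 1. With single libraries left out of the fit with the version covariate, Pcp4 in L2/3 IT ran from -1.83 without rank 1 replicate 1 to -0.19 without rank 4 replicate 1.

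The other 5 genes gave no call in excitatory neurons or their subclasses under either fit. Blocked log2 changes over the 5 subclasses ran from -0.04 to 0.16 for Camk2b, from -0.20 to 0.03 for Calm3, from -0.07 to 0.01 for Calm2, from -0.40 to 0.04 for Camk2a and from -0.40 to -0.07 for Camk2n1, against -0.79 to -0.23 for Nrgn and -0.95 to -0.48 for Pcp4. Camk2n1 in L5 IT neurons was the 1 gene and subclass whose ranks did not overlap, at 706, 1332, 1378, 1429 and 1242 CPM in the rank 1 libraries (replicates 1 to 5 in order), and 1435, 1712, 1602, 1501 and 1634 CPM in the rank 4 libraries (replicates 1 to 5 in order), and it did not pass (log2 fold change -0.38, SE 0.11, adjusted p = 0.142 with the block). Counted by pairs, rank 1 was lower in every pair of libraries in 16 of 63 gene and class combinations and higher in every pair in 0, beside 6.3% and 5.52% of genes of at least 50 CPM. Nrgn in astrocytes and in endothelial cells are 2 of these 16, so the count is a description and is not read against that share. In subclasses the counts were 9 and 0 of 35, beside 8.92% and 6.85%, again as a description.

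**Figure D5:**
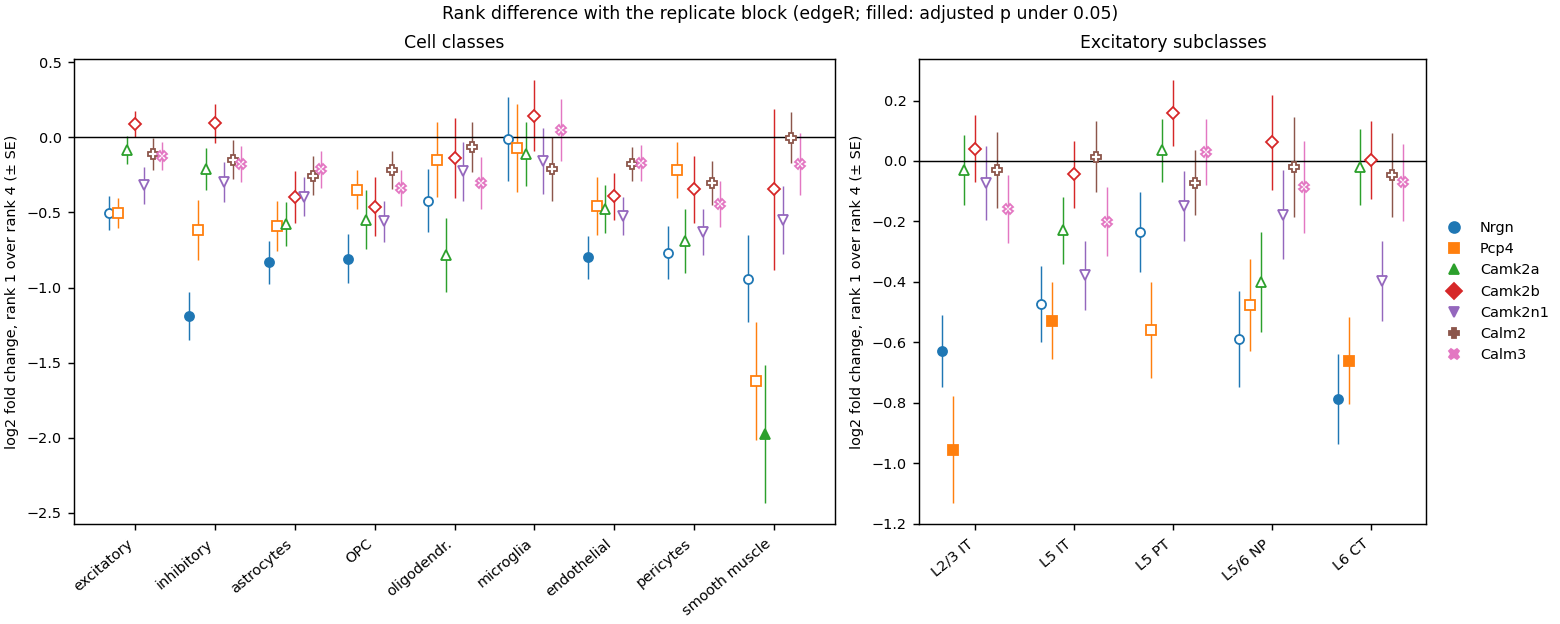
Log2 fold change of rank 1 over rank 4 with the replicate as a block (edgeR, bars ± SE), for the 7 genes in 9 cell classes and 5 excitatory subclasses, filled where the adjusted p is under 0.05. The 10 filled points are Nrgn, Pcp4 and, in smooth muscle, Camk2a, all below 0, with Nrgn in astrocytes and endothelial cells shown as a description, while Camk2b and Calm2 in excitatory subclasses run from -0.07 to 0.16.

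Of 27 further genes of the pathway (other CaM kinases and their regulators, calcineurin subunits, NMDA receptor subunits and postsynaptic scaffolds), 0 of 199 tests passed with the version covariate and 0 of 212 with the block, at 5 and 41 unadjusted p under 0.05. Of the latter, 35 were lower in rank 1, beside 5.51% of all tests. The counts of 5 and 41 are in either direction and are a description, not read against all tests. Their median log2 change with the version covariate was -0.09. The 4 smallest p were those of Camkk2 in inhibitory neurons (-0.48, SE 0.20), a kinase that activates other CaM kinases, Rcan2 in microglia (1.09, SE 0.48), a regulator of calcineurin, Camk1g in excitatory neurons (-0.41, SE 0.18) and Camkk1 in inhibitory neurons (-0.57, SE 0.26), as log2 fold changes that did not pass (edgeR adjusted p = 1.00 for each). Over the fits without 1 library or 1 pair, Rcan2 ran from 0.24 to 1.41 and Camkk1 from -0.75 to -0.34. In the same fits Camkk2 ran from -0.57 to -0.38 and Camk1g from -0.59 to -0.30.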

How the data were processed

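Raw UMI counts per gene and cell were deposited by the authors as filtered 10x matrices for 10 libraries. The submitters' processing notes name Cell Ranger 4.0.0 and mm10, while the file headers give software version 3.1.0 for replicates 1 to 3 of both ranks and 4.0.0 for replicates 4 and 5, with 31053 and 32285 genes listed. The 30406 genes in both lists were used, which hold 99.4% to 99.9% of the UMIs. The alignment settings, and whether intronic reads were counted, are not given in the sources used here. The 7 genes, the gene lists and the comparisons were chosen with earlier results of these data known.

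Cells with at least 500 genes and at most 15% mitochondrial UMIs were kept. Doublets (3915 barcodes) were removed with a score that compares each cell with simulated pairs (expected rate 0.06), and 1 library without a clear threshold took the median threshold of the others. Cells were clustered with scanpy 1.11.5 (30 components, 15 neighbours) on about 2000 variable genes without the 7 genes, and clusters were named from fixed marker lists. Clusters stayed unnamed if they met no list, led the next list by too little or had too few detected markers. Some clusters within excitatory and inhibitory neurons got no subclass name and entered no subclass rank test. UMIs were summed per library and class with at least 20 cells (10 for interneuron subclasses). Ranks were compared with edgeR 4.0.16 (quasi-likelihood test, TMM, filterByExpr) in R 4.3.3, with the software version as covariate and Benjamini-Hochberg adjustment over all genes and classes. DESeq2 1.42.0 was an alternative. Fold changes are rank 1 over rank 4. The library is the unit of replication, and p-values measure the spread between pooled libraries.

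Replicate numbers are shared between the ranks. Same-numbered libraries deviated together from their rank's mean in 40 of 40 class and number combinations (correlation 0.55 to 0.94), so they were taken as pairs, although the own-numbered partner was the best match in only 28 of 40, and the fit with the replicate as a block is printed where it changes a call. The named genes were the 7, the 4 pathway tests with the smallest p, and the 3 genes most like each of the 7 among genes of at least 50 CPM in a class; 1 of these is not reported here. In a test on simulated data for excitatory neurons (12814 genes), 84.0% and 90.0% of genes changed by 1 log2 unit down and up were recovered, all of those changed by 2, and 0.0713% of unchanged genes were called. The simulated counts had 1 fixed spread for all genes and no differences between replicates, and only the fit with the version covariate was run on them. These rates therefore do not carry over to the deposited libraries or to the fit with the block. Thinning drew 1000 UMIs from each cell without replacement.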

Additional observations from a re-analysis of the deposited data

Results flagged for a closer look

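A single library lay far from the others of its rank in 13 of the 196 combinations of gene, class and rank with 4 or 5 libraries (a gap over Dixon's critical value), where chance gives about 1 in 20. For Nrgn, rank 4 replicate 5 stood apart in L6 CT neurons (1988 CPM, the others 658 to 859) and rank 1 replicate 5 in smooth muscle cells (427 CPM, the others 34.1 to 74.1). Pcp4 was low in rank 4 replicate 4 in L5/6 NP neurons (890.3 CPM, the others 1365 to 1421), and high in rank 1 replicate 3 in L6 CT neurons (2094 CPM, the others 1041 to 1161) and in rank 4 replicate 5 in oligodendrocyte precursors (882 CPM, the others 389 to 527). Camk2a was high in rank 4 replicate 5 in smooth muscle cells (476 CPM, the others 17.2 to 76.1), in a pair without which its blocked call was lost. Camk2b was low in rank 4 replicate 1 in excitatory neurons (438 CPM, the others 508 to 531). Camk2n1 was low in rank 1 replicate 1 in L5 IT neurons (706 CPM, the others 1242 to 1429) and in rank 4 replicate 4 in excitatory neurons as a whole (1106 CPM, the others 1495 to 1632).

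For Calm2 the libraries apart were those of replicates 2 and 3 where 1 of them had enough cells. In L5/6 NP neurons these were rank 1 replicate 2 (7893 CPM, the others 1676 to 2046) and rank 4 replicate 3 (8995 CPM, the others 1596 to 2111), and in L6 CT neurons replicate 3 of rank 1 (9163 CPM, the others 2046 to 2804) and of rank 4 (8648 CPM, the others 2004 to 3038).

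The 2 clusters of all cells that stayed unnamed, and that entered no comparison, held 1400 and 85 cells. They were led by Oxt, Avp and Bc1 and by Cd74 and other antigen presentation genes. Replicates 2 and 3 had 6 to 15 of these cells per library and the other replicates 93 to 662, with median depths of 890.5 to 1243 UMIs. They carried all 7 genes, with means over the 6 libraries that had enough cells of 1114 CPM for Nrgn (range 434 to 1706), 829 CPM for Pcp4 (range 345 to 1076), 615 CPM for Camk2a (range 359 to 887), 384 CPM for Camk2b (range 223 to 555), 1373 CPM for Camk2n1 (range 1125 to 1818), 2493 CPM for Calm2 (range 1731 to 3709) and 799 CPM for Calm3 (range 627 to 917).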

How the results depend on the processing

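Calls between ranks depended on the replicate block. Without it, 0 of the 7 genes' tests passed in classes or subclasses under other scaling, DESeq2, cell filters, doublet thresholds, no covariate, single libraries left out, or either replicate range alone, except for 1 call without the low-count filter (Nrgn in inhibitory neurons). With the block there were 5 in classes and 5 in subclasses, 4 to 10 and 0 to 6 when a pair was left out, and 2 and 4 in replicates 1, 4 and 5 alone. The block changed no other call. Without each pair, the blocked log2 change of Nrgn was -1.06 to -0.64 in oligodendrocyte precursors and -1.31 to -1.11 in inhibitory neurons, and without single libraries, in the fit with no block, -1.31 to -0.03 and -1.51 to -0.69. The sign turned for Camk2a in smooth muscle without rank 1 replicate 5 (0.40, against a lowest value of -1.49 among fits without 1 library) and for Rcan2 in microglia within replicates 4 and 5 (-0.0864), and the cause was not tested. In replicates 2 and 3 alone, the share outside neurons was 5.60% for Nrgn, 10.2% for Pcp4, 6.10% for Camk2b, 13.2% for Camk2n1 and 18.7% for Calm2, and the excitatory levels of Calm2 and Calm3 were 8843 and 1280.5 CPM. Of the levels under alternatives, 1539 stayed within 1 SD and 29 did not. Classes with few cells, smooth muscle above all, limit the precision of their values. The alternatives by replicate set, and those leaving out a pair, were chosen after seeing the data.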

Other observations

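Oligodendrocyte lineage cells in transition from precursors to mature cells, named as committed precursors from their own markers, had enough cells in 7 libraries. Their Pcp4 level was 251 ± 131 CPM (SD, n = 7), under that of precursors in 7 of 7 libraries that held both and above that of mature oligodendrocytes in 3 of 7. Calm3 was at 328 ± 78.2 CPM in them, under precursors in 7 of 7 libraries. Calm2 in smooth muscle cells was above that in pericytes, their neighbours in the vessel wall, in 7 of 8 libraries and above that in microglia in 5 of 8. In replicates 2 and 3 smooth muscle cells had 5234 ± 435 CPM and microglia 2768 ± 383, and in replicates 1, 4 and 5 1429 ± 269 and 1554 ± 389 CPM.

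Excitatory clusters led by Oprk1, the kappa opioid receptor gene, rested on too few markers to be named. They had 961 ± 545 CPM (SD, n = 10) of Nrgn, 821 ± 336 CPM of Camk2a, 1426 ± 404 CPM of Camk2n1 and 174 ± 145 CPM of Pcp4. Their Camk2n1 level was above that of L6 CT neurons in 8 of 8 libraries, and their Pcp4 level was below it in 8 of 8.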
